A study of Mus musculus with 10 samples.

Results

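The HoxC domain is the stretch of mouse chromosome 15 that holds the 9 genes Hoxc13, Hoxc12, Hoxc11, Hoxc10, Hoxc9, Hoxc8, Hoxc6, Hoxc5 and Hoxc4 with its flanks (mm10, chr15:102890000-103060000, 170001 bp). Its members were chosen by position alone: every cytosine of a CpG there, on either strand, with at least 5 reads in both libraries. These were 1622 cytosines of 1065 CpGs, 557 of them read on both strands, out of 6745376 cytosines in the whole table. Methylation was read by RRBS (reduced-representation bisulfite sequencing), in which DNA cut by restriction enzymes is treated with bisulfite and sequenced, so that only cytosines near cut sites are read. The cells were spermatogonia positive for ID4-EGFP, a reporter of undifferentiated spermatogonia, from testes of LT-11B6 mouse pups (an Id4-eGfp transgene on C57BL/6) at postnatal day 6. Both groups carried the transgene and were sorted for EGFP, and they differed in staining for the surface protein TSPAN8: the most strongly stained cells were TSPAN8-high and the most weakly stained positive cells TSPAN8-low. DNA of 5 sorts was pooled into 1 library per fraction, called the high and the low library, so no error between replicates could be given, every test compares the 2 libraries and not the conditions, and every interval covers counting error at most. Pooled counts take a read at each CpG that it spans, so intervals and upper limits from pooled reads are too narrow. The 8 chromatin samples of the series were not analysed here. The table holds no expression values, so the sorted cell type was not checked against marker RNA.

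Hox genes encode homeodomain transcription factors that give cells their identity along the body axis, and their order in a cluster follows the order of their expression domains from front to back. The genes of a cluster are transcribed in the same direction. Here RefSeq placed Hoxc4 on the plus strand, so the lower-coordinate end of each Hoxc gene is taken as its 5′ end. Where Hox clusters are not expressed they are known to be held silent by Polycomb complexes while their CpG islands stay free of DNA methylation, and vertebrate Hox clusters lie in wide unmethylated regions in many cell types. Besides the Hoxc genes, RefSeq listed 6 others that lie in or reach into the domain: the antisense RNA gene Hotair, the microRNA genes Mir196a-2 and Mir615, and the uncharacterised RNA genes Gm36878, Gm29905 and Gm30528.

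RefSeq promoter sequence (GRCm38.p6, which is mm10, from 250 bases before to 50 after a start) was at hand for 4 of the 15 genes. Printed are 2 sequences that show which CpGs were listed, with at least 5 reads in both libraries, and which were not. An unlisted CpG may have been read below that limit. The Gm36878 promoter, inside Hoxc9 on the minus strand (chr15:102981014-102981313), has its listed CpGs in capitals.
Gm36878: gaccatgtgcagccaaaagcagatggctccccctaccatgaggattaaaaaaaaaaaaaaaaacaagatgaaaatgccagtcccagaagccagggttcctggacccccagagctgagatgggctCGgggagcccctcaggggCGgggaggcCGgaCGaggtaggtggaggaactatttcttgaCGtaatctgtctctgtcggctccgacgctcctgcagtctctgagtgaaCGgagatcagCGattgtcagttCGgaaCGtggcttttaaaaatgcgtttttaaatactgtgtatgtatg
Of its 13 CpGs, 9 were listed, with 0 of 70 methylated reads in the high library (which allows up to 4.29%) and 1 of 67 in the low library (1.49%). The Hoxc4 promoter on the plus strand (chr15:103034145-103034444) has its restriction sites in capitals.
Hoxc4: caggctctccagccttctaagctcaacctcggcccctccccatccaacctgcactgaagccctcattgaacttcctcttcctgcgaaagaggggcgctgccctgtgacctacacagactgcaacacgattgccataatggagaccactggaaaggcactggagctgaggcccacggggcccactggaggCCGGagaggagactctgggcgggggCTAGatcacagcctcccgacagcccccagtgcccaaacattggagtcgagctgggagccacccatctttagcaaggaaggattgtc
None of the 9 CpGs of this Hoxc4 sequence was listed, although CpGs on both sides of it were. It holds 1 CCGG, the site of MspI, 1 CTAG, the site of BfaI, and no TTAA, the site of MseI. These motifs do not overlap and read the same on both strands. Among 32851 promoter windows of the same length, 52.8% hold CCGG, 59.2% CTAG and 52.4% TTAA. Mature sequences of Mir615 are printed because a listed CpG falls inside each, with the seed, bases 2 to 8, in capitals.
mmu-miR-615-5p: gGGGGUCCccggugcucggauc
mmu-miR-615-3p: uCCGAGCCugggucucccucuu
The listed CpG of the 3p arm (chr15:103014969-103014990) begins at base 3, within the seed, and the 5p arm (chr15:103014926-103014947) has its listed CpG from base 17. Both were unmethylated on the minus strand, the strand on which they were read, with 0 of 12 reads in the high and 0 of 9 in the low library at the 3p arm and 0 of 6 and 0 of 5 at the 5p arm.

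The first comparison asked how the domain was methylated in each fraction. It was mostly unmethylated in both, against a genome that was mostly methylated. The mean level of the 1622 cytosines came to 17.7% in the high and 17.4% in the low library, while all cytosines of the table averaged 74.3% and 74.4%. Levels below 20% were found at 1253 cytosines in the high library (77.3%) and 1254 in the low library (77.3%), against 19.3% of all cytosines in each library. At 952 cytosines no methylated read was seen in either library. Levels above 80% were found at 190 and 186 cytosines, and levels from 20% to 80% at 179 and 182. The domain held 21302 reads over its cytosines in the high and 21489 in the low library, with medians of 10 and 11 reads per cytosine and a range of 5 to 52 and 5 to 60. Of the pooled reads 16.5% were methylated in the high and 16.3% in the low library, and the high library exceeded the low by 0.153 percentage points (95% Newcombe interval -0.549 to 0.855).

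Levels below those of the whole table were also found where fewer CpGs were listed nearby. RRBS cytosines were split by the number of listed CpGs in the 200 bp around them, since dense CpGs are usually unmethylated in any part of the genome. Where 10 or more were listed, the domain averaged 1.25% in the high and 1.39% in the low library over 536 cytosines, near the 1.75% and 1.73% of the whole table. Where 3 to 9 were listed, its 767 cytosines averaged 13.7% and 12.9%, while those of the whole table averaged 67.0% and 67.1%. Where at most 2 were listed, its 319 cytosines averaged 55.0% and 55.2%, against 89.1% and 89.2%. Median reads in these classes ranged from 9 to 12. No test was made of these differences from the genome, as cytosines of 1 library are not replicates. Only CpGs with at least 5 reads in both libraries are listed, so a place with few listed CpGs may still be CpG-dense. Whether the low level reached outside CpG islands was thus not tested.

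**Figure D1:**
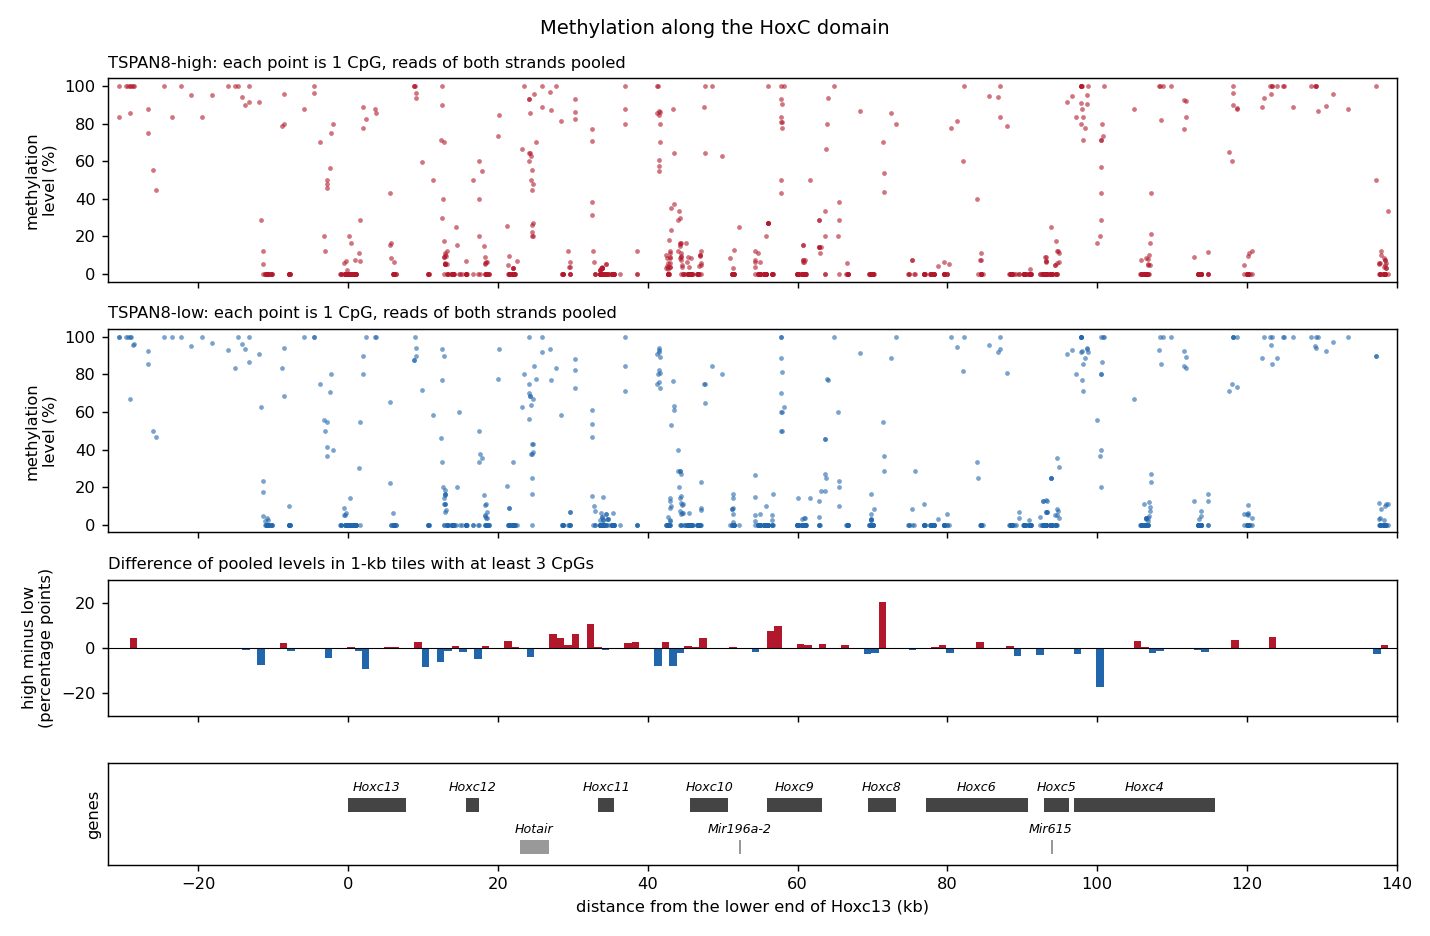
Methylation level (%) of each CpG in TSPAN8-high (red) and TSPAN8-low (blue) against distance from the lower end of Hoxc13 (kb), the difference of the libraries in 1-kb tiles (percentage points) and the genes. Unmethylated runs alternate with methylated CpGs throughout the cluster, and 79 of the 82 tiles differ by less than 10 percentage points.

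Along the domain, unmethylated CpGs came in many runs, with methylated places between them. A run was counted where at least 5 consecutive CpGs were below 20% in both libraries with no gap of over 2 kb. There were 32 unmethylated runs with 786 CpGs, which covered 38870 bp or 22.9% of the domain, with levels of at most 11.5% in the high and 9.33% in the low library. Of them 18 touched a listed gene. The longest run began inside Hoxc6 and ended in Hoxc5 (chr15:103009427-103014888, 5462 bp), with 79 CpGs at 0.586% in the high and 1.38% in the low library. Another spanned all of Hoxc11, a gene of the posterior group (chr15:102953775-102957430, 3656 bp), with 73 CpGs at 0.958% and 1.35%. A run across the lower end of Hoxc6 and the start of Gm29905, transcribed the other way (chr15:102997985-103001318, 3334 bp), had 33 CpGs at 1.10% and 0.843%. At the lower end of Hoxc10 a run of 2578 bp (chr15:102965646-102968223) had 52 CpGs at 1.67% and 1.88%. The fifth in length lay inside Hoxc4 and Gm30528 (chr15:103034019-103035956, 1938 bp), where 30 CpGs were at 0.997% and 2.21%.

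Unmethylated runs also lay outside the genes, both between Hoxc genes and in the lower flank. In the lower flank, 10199 bp before Hoxc13, a run of 909 bp with 23 CpGs (chr15:102910024-102910932) had 0 of 591 methylated reads in the high and 4 of 628 in the low library. Runs of CpGs above 80% in both libraries, counted in the same way, numbered 7, with 47 CpGs in 22758 bp, and 3 of them lay in the lower flank. Of the rest 1 lay between Hoxc13 and Hoxc12, 1 inside Hoxc4 and Gm30528, and 2 in Gm30528 beyond Hoxc4. The first tile with at least 3 CpGs in the domain (chr15:102892001-102893000) was at 99.0% in the high and 94.7% in the low library.

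Runs of at least 5 CpGs at 20% to 80% in both libraries were few, with 3 in the domain and 16 CpGs in all. One lay 1989 bp before Hoxc13 (chr15:102918347-102919142), at 53.1% in the high and 54.1% in the low library. The second lay inside Hotair (chr15:102945382-102945676), at 36.9% and 46.3%, and the third inside Hoxc4 (chr15:103021466-103021671), at 39.5% and 48.4%. The last of these rested on 43 and 31 reads. In bulk libraries an intermediate level may be a mixture of cells, alleles or molecules, which the table does not separate.

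The second comparison asked whether the Hoxc genes differed at their ends. In the window of 1 kb either side of the lower end, 8 of the 9 Hoxc genes were nearly unmethylated in both libraries, and Hoxc4 was not. Hoxc13, the last gene of the posterior group and a regulator of hair formation (chr15:102921131-102928814), had 8 of 1332 methylated reads in the high library (0.601%) and 6 of 1308 in the low library (0.459%) over 64 CpGs. Hoxc12 (chr15:102936826-102938609) had 1 of 136 and 3 of 111. Hoxc11 (chr15:102954526-102956701) was at 5.05% and 4.60% over 49 CpGs, and Hoxc10 (chr15:102966796-102971898), a gene of hindlimb and lumbar identity, at 1.02% and 0.628% over 34.

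Among the more anterior genes, Hoxc6 (chr15:102998226-103011882), a gene of thoracic identity, had 0 of 146 methylated reads at its lower end in TSPAN8-high, which allows up to 2.05%, and 1 of 181 in TSPAN8-low (0.552%). Hoxc5 (chr15:103014008-103017429) was at 1.82% and 3.42% over 41 CpGs. Hoxc4 (chr15:103018097-103036856) was at 93.4% (85 of 91 reads) and 93.3% (126 of 135) over 10 CpGs at the lower end of its annotated span. The start for which RefSeq promoter sequence was at hand lies inside this span, at 103034395. Around that start Hoxc4 was at 0.771% (95% exact interval 0.210 to 1.96) and 1.72% (0.827 to 3.14) over 26 CpGs. Hoxc4 was thus methylated at 1 annotated end and nearly unmethylated in the window around the internal start in both fractions. None of the 9 CpGs in the promoter sequence printed for that start was listed, so no level is given for the start itself.

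At the upper ends the genes differed among themselves. Hoxc8 was at 83.3% and 93.3% there on only 12 and 15 reads, and Hoxc5 at 91.7% and 90.9% on 36 and 44. Hoxc9 was at 32.4% and 26.1%, with a difference of 6.33 percentage points whose 95% interval took in 0 (-3.48 to 16.2). Hoxc10, Hoxc11, Hoxc12, Hoxc6 and Hoxc4 were below 10% in both libraries, with Hoxc11 at 0 of 476 reads in TSPAN8-high, which allows up to 0.630%, and 7 of 481 in TSPAN8-low. Hoxc13 had no listed CpG at its upper end.

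**Figure D2:**
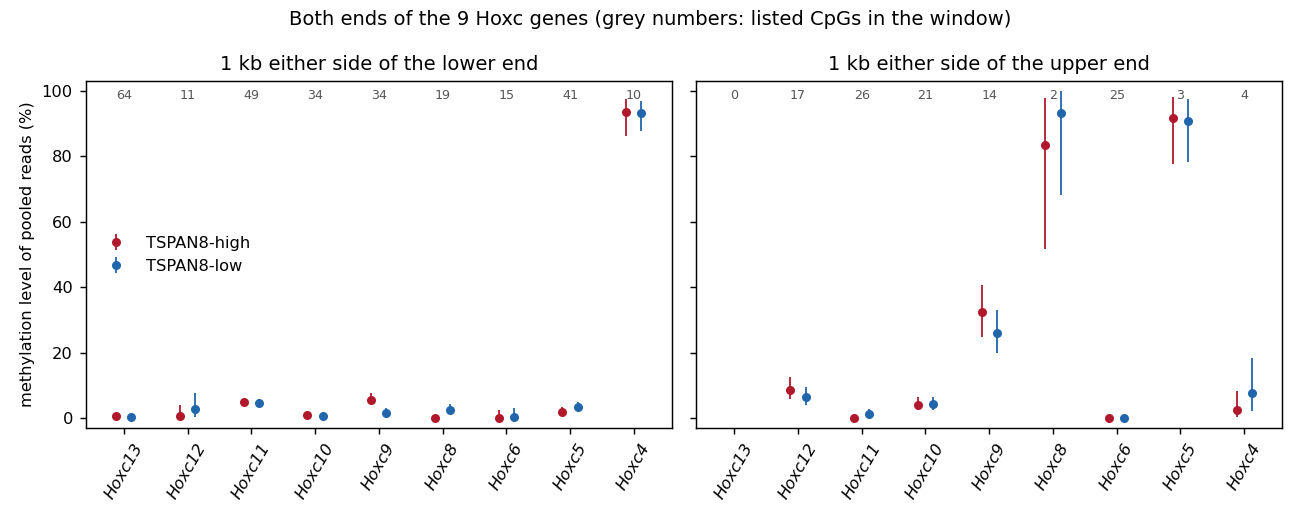
Methylation level of pooled reads (%) in the window of 1 kb either side of the lower end (left) and upper end (right) of each Hoxc gene, with 95% exact intervals, for TSPAN8-high (red) and TSPAN8-low (blue), with the number of CpGs at the top. The lower ends lie below 6% except that of Hoxc4, at 93.4% and 93.3%.

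Between their ends the genes differed in level. Inside Hoxc11, 108 cytosines averaged 0.858% in the high and 0.900% in the low library. Hoxc5 averaged 5.12% and 6.67%, Hoxc13 6.76% and 7.65%, and Hoxc6 10.4% and 10.9%. Hoxc12 averaged 9.01% and 6.41%, Hoxc8 12.1% and 12.3%, and Hoxc10 12.2% and 11.1%. Among the Hoxc bodies Hoxc9 differed most between the libraries, at 14.5% against 8.04% over 144 cytosines, which include the place near its lower end described further on. The body of Hoxc4 was higher, at 26.7% and 28.3% over 143 cytosines. Of the DNA between genes, that between Hoxc6 and Hoxc5 averaged 0.0866% and 1.70%, that between Hoxc9 and Hoxc8 27.8% and 29.9%, and that between Hotair and Hoxc11 34.6% and 29.9%. Between Hoxc5 and Hoxc4 2 cytosines were at 91.7% and 94.1%. The lower flank averaged 35.2% and 36.4% and the upper flank 31.6% and 31.7%.

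Hotair, the antisense RNA gene between Hoxc12 and Hoxc11 whose product has been linked to Polycomb silencing (chr15:102944062-102947946), had the highest mean level of the gene bodies with listed cytosines in both libraries. Its 33 cytosines averaged 63.3% in the high and 60.4% in the low library, and 230 of 354 and 233 of 341 pooled reads were methylated, a difference of -3.36 percentage points (95% Newcombe interval -10.3 to 3.65). The DNA next to its lower end was unmethylated, with 23 CpGs at 3.45% and 2.34%, and that at its upper end was methylated, at 91.8% and 88.9% over 5 CpGs. As Hotair is antisense to the Hoxc genes, its upper end is taken as its 5′ end. Mir196a-2, whose product represses Hox messages, had no listed cytosine within its hairpin. The window of 1 kb either side of its lower end was at 1.77% and 1.91% over 20 CpGs. In Mir615, which lies within Hoxc5, 6 cytosines had 2 of 46 and 4 of 40 methylated reads. Around the start of Gm36878, 42 CpGs were at 1.63% and 0.445% (adjusted p = 0.205, Fisher's exact test). The window around the start of Gm29905 takes in the lower end of Hoxc6 and holds the same 15 CpGs, and that of Gm30528, partly beyond the domain, was at 1.86% and 2.13%.

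The third comparison asked where the fractions differed. In 1-kb tiles the libraries were close at most places, and no tile of the domain was called. Of 82 tiles with at least 3 CpGs, 52 were below 20% and 14 above 80% in both libraries. TSPAN8-high was higher in 41, lower in 39 and equal in 2, and 68 tiles differed by less than 5 percentage points. A call needed both 10 percentage points or more and an adjusted p under 0.05 (Fisher's exact test, Benjamini-Hochberg over all tiles), and 0 of 82 tiles met it, where 0.268% of 585220 tiles of the table did. At so low a share, no call among 82 tiles does not set the domain apart. At an unadjusted p under 0.05 there were 10 tiles of 82, where 8.6% of all tiles passed. At any size of difference 1 of 82 tiles passed the adjusted p, where 0.358% of all tiles did, and this was the tile at the lower end of Hoxc9 described further on. Ignoring the p, 3 tiles of the domain differed by at least 10 percentage points (3.66%), against 8.05% of all tiles. Among the 14 tiles with a mean level from 20% to 80% these were 3 of 14 (21.4%), against 36.9% of such tiles in the table. The median absolute difference was 6.93 percentage points in these 14 tiles and 7.35 in all such tiles.

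The tile with the largest higher level in TSPAN8-high lay inside Hoxc8 (chr15:102992001-102993000), with 51 of 95 methylated reads (53.7%) against 27 of 81 (33.3%). This difference of 20.4 percentage points (95% Newcombe interval 5.64 to 33.8) rested on 3 CpGs, and Fisher's exact test gave it an adjusted p of 0.325. Next came a tile 526 bp before Hoxc11 (chr15:102953001-102954000), at 45.8% against 35.1%, and a tile inside Hoxc9 (chr15:102978001-102979000), at 82.8% against 73.2%. The largest lower level lay inside Hoxc4 (chr15:103021001-103022000), with 63 of 107 reads (58.9%) against 70 of 92 (76.1%), a difference of -17.2 percentage points (95% Newcombe interval -29.3 to -4.11), for which Fisher's exact test gave an adjusted p of 0.341. A tile inside Hoxc13 (chr15:102923001-102924000) was at 82.9% against 92.1% and a tile 2187 bp beyond Hoxc13 (chr15:102931001-102932000) at 22.9% against 31.3%. None of these 6 differences passed the test adjusted over all tiles.

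Between Hotair and Hoxc11 all 5 measured tiles that touch neither gene were higher in TSPAN8-high, by 1.43 to 10.8 percentage points. Over the whole gap the pooled reads gave 50.1% against 36.2%, while the mean over its 48 cytosines gave 34.6% against 29.9%. Read numbers differed along it: its most methylated tile (chr15:102948001-102949000, 92.2% and 85.9%) held 128 reads in the high and 64 in the low library. The pooled value was not tested as a gap, and the part of these read numbers in it was not tested. Between Hoxc11 and Hoxc10 the pooled reads went the other way, at 22.8% against 28.4%, a difference of -5.57 percentage points (95% Newcombe interval -8.39 to -2.75), while the means over 134 cytosines were 21.2% and 21.9%. Both gaps are named for the size of their pooled difference, after their values were seen.

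No single cytosine met the call for cytosines, 20 percentage points or more with an adjusted p under 0.05 (0 of 1622, where 0.00111% of 6745376 were called). At an unadjusted p below 0.05, 22 cytosines differed (1.36%), 13 higher and 9 lower, against 1.47% of the table. Among the 165 cytosines that had 20 reads or more on each side, the largest difference upward was inside Hoxc8 at 102992658, with 22 of 40 reads (55.0%) against 9 of 37 (24.3%), and its partner on the other strand showed 15 of 29 against 8 of 22. A cytosine 1561 bp beyond Hotair at 102949507 had 24 of 31 against 15 of 30, and one inside Hoxc6 at 103009055 had 31 of 35 against 14 of 21. On the other strand of these CpGs the order was the same beyond Hotair (16 of 18 against 17 of 25) and the opposite in Hoxc6 (10 of 17 against 15 of 15). The largest differences downward lay before Hoxc10: 8 of 20 against 18 of 20 at 102962605, 6 of 26 against 14 of 20 at 102964188, and 12 of 20 against 16 of 20 at 102962598. On the other strand at these CpGs the counts were 11 of 13 against 13 of 13, 2 of 8 against 2 of 10 and 8 of 13 against 9 of 13. The strands thus gave differences of unlike size, and Fisher's exact test gave each of these cytosines an adjusted p of 1.

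The 5 lowest p of the domain lay together, just past the lower end of Hoxc9, a gene of thoracic identity (chr15:102977032-102984444). On the minus strand, 6 cytosines within 32 bp, from 194 to 225 bp past that end (chr15:102977226-102977257), were methylated in 6 of 6 reads each in TSPAN8-high. In TSPAN8-low the same cytosines had no methylated read, with 0 of 22 at 5 of them and 0 of 11 at the sixth. On the plus strand, 5 of these CpGs were also read and were unmethylated in both libraries, with 0 of 16 reads each in the high and 0 of 6 in the low library. In TSPAN8-high the CpGs were thus fully methylated on the minus strand and not on the plus strand. At a single one of these cytosines the exact 95% interval was 54.1% to 100% in TSPAN8-high, and 0 of 22 reads allows up to 13.6% in TSPAN8-low. The adjusted p was 0.0762 at 5 of the cytosines (Fisher's exact test), above the threshold. A read over several CpGs is counted at each, and the read numbers were equal along the place but for the sixth cytosine in TSPAN8-low, so the 6 cytosines are not 6 observations. Without molecular identifiers the 6 reads may stem from as few as 1 molecule, which the interval does not cover, and whether bisulfite conversion was complete on them was not tested. The remaining 11 cytosines of the tile, 657 to 764 bp past the end of Hoxc9, had 0 of 279 methylated reads in the high and 7 of 232 in the low library.

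**Figure D3:**
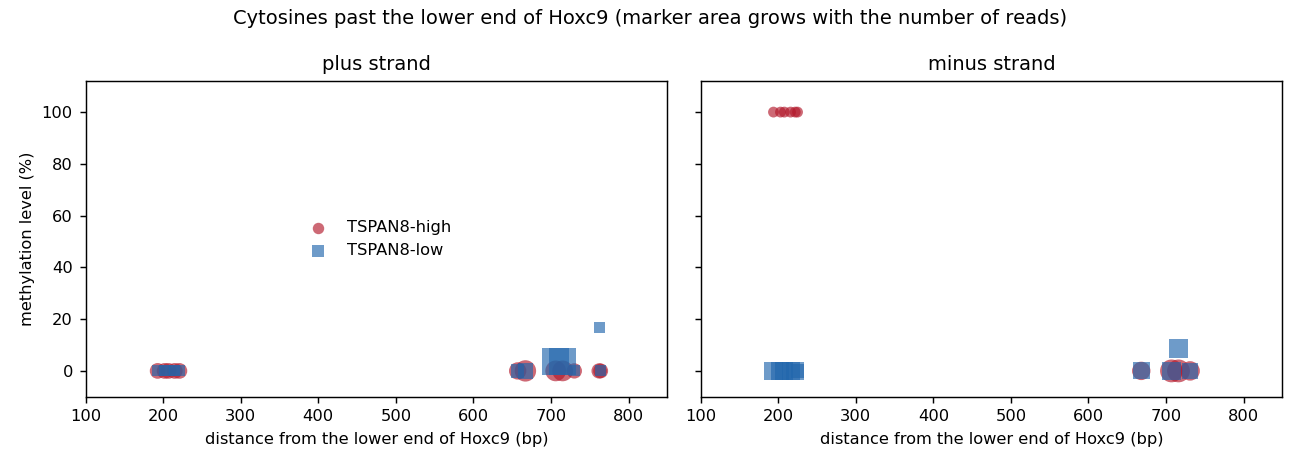
Methylation level (%) of each cytosine from 193 to 764 bp past the lower end of Hoxc9, on the plus strand (left) and minus strand (right), in TSPAN8-high (red circles) and TSPAN8-low (blue squares), with marker area growing with reads. Only the 6 minus-strand cytosines from 194 to 225 bp in TSPAN8-high lie at 100%, each on 6 reads.

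In gene windows no Hoxc gene was called, and the value of Hoxc9 turned on this place. The windows, 1 kb either side of a known start or else of the CpG-richer gene end (for Hoxc12 and Hoxc6 the upper end), gave no call among the 9 Hoxc genes, where 0.851% of 27851 genes were called. At any size of difference 2 of 9 had an adjusted p below 0.05, Hoxc9 and Hoxc8, against 3.32% of all genes. The other Hox clusters were alike in this, with 1 of 11 genes in HoxA, 2 of 10 in HoxB and 1 of 9 in HoxD. Hoxc9 was at 5.73% in the high library (38 of 663 reads) and 1.67% in the low library (10 of 600), a difference of 4.06 percentage points (95% Newcombe interval 2.01 to 6.24), with an adjusted p of 0.0129 by Fisher's exact test. Without the 11 cytosines of the place described, on both strands, the difference turned to -1.86 (by Fisher's exact test the adjusted p was 0.125). With at least 10 reads it was -2.92 (adjusted p = 0.0385, Fisher's exact test). That minimum leaves out the 6-read cytosines and many others, and kept 8 of the 34 CpGs of the window. Windows of 500 bp either side called Hoxc9 as higher in TSPAN8-high, with a difference of 10.6 percentage points. With 2 kb either side (3.53) and with 1 CpG kept per 100 bp (2.14) the adjusted p rose to 0.196 and 0.919 (Fisher's exact test).

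Hoxc8, a gene of thoracic and brachial identity (chr15:102990539-102994275), had 0 of 478 methylated reads over 19 CpGs at its lower end in TSPAN8-high, which allows up to 0.628%, and 14 of 536 (2.61%, 95% exact interval 1.44 to 4.34) in TSPAN8-low. The difference of -2.61 percentage points (95% Newcombe interval -4.34 to -1.29) had, by Fisher's exact test, an adjusted p of 0.0122, and it was smaller than the 10 that a call needs. With 1 CpG kept per 100 bp it was 0 over 5 CpGs, and the adjusted p exceeded 0.05 at 20 or more reads (0.0728) and with windows of 2 kb (0.0925, Fisher's exact test in both). At 10 or more reads the difference was -2.95 (adjusted p = 0.0121) and with 500 bp either side -2.65 (adjusted p = 0.0254, Fisher's exact test in both). The other 7 Hoxc genes differed by 2.29 percentage points or less either way and had adjusted p of 0.463 or more (Fisher's exact test).

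At most CpGs of the domain the strands were close in level. At the 557 CpGs read on both, the levels lay within 10 percentage points of each other at 441 in the high library (79.2%) and 452 in the low library (81.1%), against 71.7% and 72.8% of all such CpGs. The strands differed by 50 percentage points or more at 7 CpGs in the high library (1.26%) and 5 in the low library (0.898%), against 0.611% and 0.558% of all such CpGs. In TSPAN8-high 5 of the 7 were those at Hoxc9, fully methylated on one strand and unmethylated on the other. Such full opposition was found at 166 of 2256156 CpGs of the whole table in that library, in 156 places when CpGs within 100 bp were joined. Hoxc9 was the only place among them with 5 CpGs. In TSPAN8-low no CpG of the domain showed it, and 212 of the table did.

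The fourth comparison set the cluster beside the other Hox clusters and beside genes that act on them. All 4 clusters, each taken with 15 kb either side, were far below the genome, and HoxC lay between HoxA and HoxB. HoxC averaged 16.6% in the high and 16.3% in the low library over 1540 cytosines, HoxB 20.8% and 21.2% over 2003, HoxA 12.9% and 12.8% over 1715, and HoxD 9.99% and 9.78% over 1720. The order was the same without flanks, with HoxB at 18.6%, HoxC at 14.6%, HoxA at 9.56% and HoxD at 8.14% in TSPAN8-high. Where at most 2 CpGs were listed in 200 bp, HoxC averaged 51.4% and 51.6%, between HoxB (63.4% and 64.4%) and HoxA (43.6% and 44.2%) or HoxD (43.5% and 44.6%). Where 10 or more were listed, HoxC was instead the highest, at 1.22% and 1.35%. HoxA was then at 1.12% and 0.749%, HoxB at 0.880% and 1.13%, and HoxD at 0.795% and 0.354%. These are descriptions of 1 library each, with no test between clusters.

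**Figure D4:**
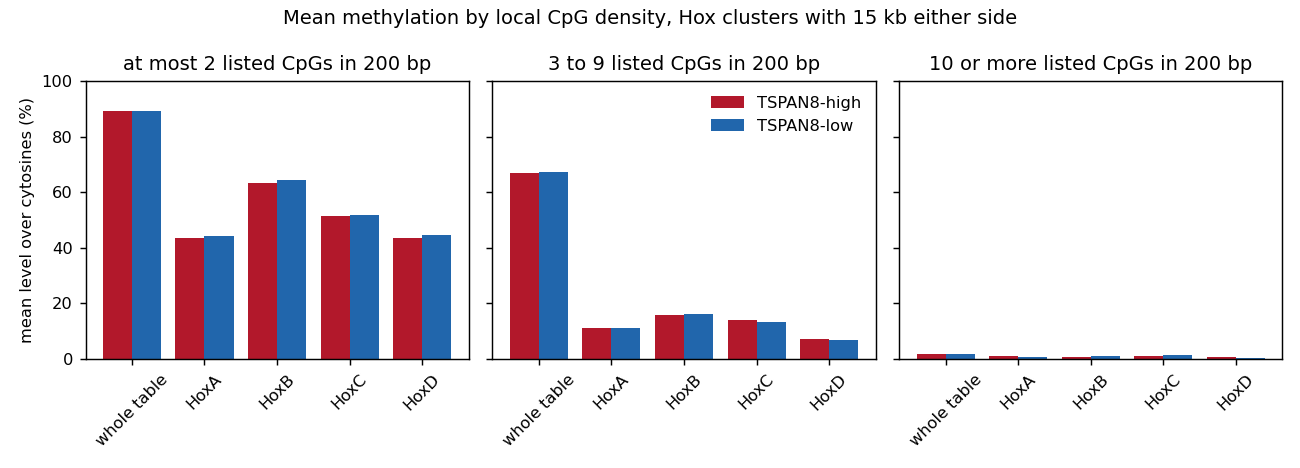
Mean methylation level over cytosines (%) in TSPAN8-high (red) and TSPAN8-low (blue) for the whole table and the 4 Hox clusters with 15 kb either side, split by how many listed CpGs lie within 200 bp. At 3 to 9 listed CpGs the whole table is at 67.0% and 67.1% and HoxC at 14.1% and 13.3%.

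Gene windows of the other clusters held 1 call, Hoxb3, at 16.9% in the high against 35.5% in the low library (by Fisher's exact test the adjusted p was 0.000359), among 10 HoxB genes, 11 HoxA genes and 9 HoxD genes, where 0.851% of all genes were called. These are pooled reads, and by the mean over its cytosines Hoxb3 was at 28.5% and 35.1%, a difference of -6.64 percentage points, smaller than a call needs. No start by strand was at hand for Hoxb3, so its window lay at the upper, CpG-richer end, with 11 CpGs. The starts by strand of Hoxb4 and Hoxb1 lay at their lower ends. By the shared direction of a cluster, the Hoxb3 window thus lay at the 3′ end of its annotated span and not at its 5′ end. The Hoxb2 window named below likewise lay at an upper end chosen by its CpGs. The Hoxa4 window did so too, but in HoxA the starts by strand of Hoxa2, Hoxa5 and Hoxa7 lay at upper ends. For Hoxa4 the upper end is thus the 5′ side. The median difference was 0.142 percentage points over the 9 Hoxc genes, 0.0559 over HoxA, -0.774 over HoxB, 0.133 over HoxD and -0.0256 over all genes tested. The genes with the most reads were Hoxa11 (0.435% and 0.978%) and Hoxa4 (0.949% and 1.47%) in HoxA, Hoxb5 (3.71% and 4.10%) and Hoxb2 (0.982% and 1.93%) in HoxB, and Hoxd9 (0.831% and 0.520%) and Hoxd1 (0.587% and 0.454%) in HoxD.

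Of the genes that act on Hox clusters, none of the 18 Polycomb genes, which keep Hox genes silent, was called, none of 8 measured genes of the MLL complexes, which keep them active, and none of 9 genes of TALE homeodomain proteins, which bind DNA together with Hox proteins. With 0.851% of all genes called, no call in lists of this length says nothing particular about them. Of all genes tested 62.8% were below 20% in both libraries. All 18 Polycomb windows were below 20%, with Jarid2, a subunit that recruits the Polycomb complex PRC2, at 0.600% and 0.354%. Of the MLL list 7 of 8 were below 20%, with the methyltransferase genes Kmt2b at 0.840% and 1.02% and Kmt2a at 1.14% and 0.227%. The exception, Ash2l, was at 93.8% and 96.0% over 11 CpGs. No start by strand was at hand for Ash2l, so its window lay at the CpG-richer lower end, which may not be its start. All 9 TALE windows were below 20%, with Pbx3 at 0.274% and 0.425% and Pknox1 at 0.520% and 1.33%. The Kmt2b, Pbx3 and Pknox1 windows likewise lay at ends chosen by their CpGs. The median differences of these lists were -0.193, 0.130 and -0.151 percentage points.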

How the data were processed

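RRBS of 2 pooled libraries, 1 per fraction, gave 1 table. Per the labels' protocols, 300 ng of DNA was cut with BfaI, MseI and MspI and sequenced with paired reads of 50 bp. In the deposited table the methylation level is a fraction, methylated over all reads, rounded to 2 decimals, and coverage is a read count of at least 5 in both libraries, per the file headers and values. The deposited difference, of unit other, is high minus low. The deposited p-value equalled Fisher's exact test within a relative tolerance of 0.001 at 94.4% of the domain's cytosines. Bowtie, SICER, mm10 and mm9 stand in the submitters' processing notes, with no assay named; the methylation caller is not given in the sources used here. All 230231 listed cytosines inside RefSeq promoter sequences of GRCm38.p6 fell on a CpG, so mm10 was used.

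The number of methylated reads was taken as coverage times level, rounded, which gave back every deposited level of the domain. Tiles of 1 kb, single cytosines and gene windows were tested over the whole table by two-sided Fisher's exact tests with Benjamini-Hochberg adjustment (Python 3.11.15, numba 0.67.0, scipy 1.17.1). Reads over several CpGs are counted at each, which makes p values too small, and intervals and limits from pooled reads too narrow. Windows used the start by strand where RefSeq gave one (27025 genes), otherwise the end with more listed CpGs. A level of 0 allows up to 3 counts. Without molecular identifiers, intervals and limits cover counting error at most. Read numbers were even at 60.2% and 60.5% of the domain's cytosines; whether both mates of a pair were counted is not given in the sources used here. The test and run finder were tested on simulated data. Named were all genes of the domain, the 3 largest differences each way, the 5 longest runs, and from each list the called genes and, with fewer than 2 called, the 2 with most reads, of which 1 is not reported here. Members and lists were chosen with earlier results of these data known. Alternatives were other read minimums, weights, tile and window sizes, thinning to 1 CpG per 100 bp, and run limits.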

Additional observations from a re-analysis of the deposited data

How the results depend on the processing

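No paired analysis was possible because each fraction has 1 library. Depth limits single cytosines, which had medians of 10 and 11 reads. The domain mean in TSPAN8-high and TSPAN8-low was 16.3% and 16.2% with a minimum of 10 reads, 15.4% and 16.3% with a minimum of 20 (a difference of -0.896 percentage points), 16.5% and 16.3% with reads pooled, 18.2% and 18.2% over CpGs, 25.8% and 25.9% over 1-kb tiles, 16.6% and 16.9% on the plus strand and 18.7% and 18.0% on the minus strand. Without the 11 cytosines near Hoxc9, chosen after seeing the data, the difference went from 0.273 to -0.0972 percentage points. Tiles called in the domain went from 0 to 1 with no minimum difference, with tiles of 500 bp and with the grid moved by 500 bp, each time the tile that holds the Hoxc9 place (31.0% against 0 of 151 reads in the 500-bp tile). At 20 or more reads 1 tile before Hoxc10 was called (chr15:102962001-102963000, 75.5% against 90.1%, adjusted p = 0.0180, Fisher's exact test), where 15 tiles were left in the domain and 1.07% of 23688 tiles of the table were called. Calls of single cytosines were 0 in the 4 alternatives run. Gene windows went from 0 to 1 call, Hoxc9, with 500 bp either side (10.6) and as unweighted means (11.6). The direction turned at Hoxc9 without that place (-1.86) and with a minimum of 10 reads (-2.92), at Hoxc11 with a minimum of 20 reads (-0.0387) and thinned to 1 CpG per 100 bp (-0.758), at Hoxc12 thinned (-0.166), at Hoxc10 with 2 kb either side (-0.541), and at Hoxc6 with 2 kb either side (-0.557) and as an unweighted mean (-0.0998). Unmethylated runs fell from 32 to 9 and from 38870 to 10341 bp at 20 or more reads, since fewer CpGs were left. Cluster means in TSPAN8-high at 20 or more reads were 13.4% (HoxA), 16.8% (HoxB), 14.7% (HoxC) and 3.92% (HoxD), and without flanks 9.56%, 18.6%, 14.6% and 8.14%. At 10 or more reads HoxC was at 15.4% and HoxD at 7.98%, and with reads pooled at 15.6% and 8.75%. A minimum of 10 reads and the other level and gap limits gave 23 to 44 runs and 29176 to 42936 bp. Where no cause is given, the cause was not tested.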
